A study of Mus musculus with 4 samples.

Results

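Pyruvate stands at the branch between lactate production in the cytosol and oxidation in mitochondria, and the genes described here control the mitochondrial branch. The mitochondrial pyruvate carrier (Mpc1 and Mpc2) brings pyruvate into the matrix, and the pyruvate dehydrogenase complex turns it into acetyl-CoA. The alpha and beta subunits of its first enzyme are encoded by Pdha1 and Pdhb. Pyruvate dehydrogenase kinases (Pdk1 to Pdk4) phosphorylate the alpha subunit and switch the complex off, and the phosphatases Pdp1 and Pdp2 remove the phosphate and switch it on. Pdk1 is a textbook target of the hypoxia-inducible factor HIF-1, through which cells short of oxygen send less pyruvate to respiration. Pdk4 is best known as a gene of fasting and fat oxidation. These 10 genes were taken by symbol from a table of 55487 mouse genes. Each symbol matched 1 gene ID, and all 10 were among the 15706 genes expressed highly enough to be tested.

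RNA came from tumours of AXT cells, a mouse osteosarcoma line made from marrow stromal cells that lack Ink4a/Arf and overexpress c-MYC, a background that the control and knockout cells share. Mock AXT cells, labelled wild type, and AXT lines labelled HIF-1alpha KO were grown in IMDM, mixed with matrigel and injected into C57BL/6scid mice, which lack mature B and T cells but keep other host cells. Tumours were taken at day 1, so the RNA of each library is that of implanted cells and of host cells in the sample. The series holds 1 mock library and 3 knockout libraries, which the authors' table names c11, c15 and c22. Which of the labelled knockout lines (AXT1-1, AXT1-2 and AXT2) each of them is, whether a line is 1 clone, how many mice stand behind a library and the ages of the mice are not given in the sources used here. The mock library has no replicate, and p-values below measure only the spread between these libraries.

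Library totals were 12383719 to 13193264 counts, and levels are given in CPM, the counts scaled to a library total of 1000000. Hif1a, the targeted gene, was at 107 CPM in mock, while c11 had 104, c15 had 98.7 and c22 had 22.3 CPM, so c22 was far below mock, c11 and c15 were slightly below it (0.971 and 0.922 of mock), and in c11 and c15 the label cannot be checked from a count over the whole gene. The 11 osteoblast lineage markers, checked for the labelled cell type, were present in every library except that Bglap was at 0 in c11. Of the 11, 5 were below mock in every knockout library, 1 was above it in every one and 5 did neither. Of all tested genes, 22.5%, 21.0% and 56.6% did so. Among those below, Runx2 was at 245 CPM in mock and 116 to 139 CPM in the knockout libraries and Dmp1 at 75.5 CPM against 0.62 to 16.4 CPM. Col1a1, the 1 above, was at 862 CPM in mock against 1093 to 4700 CPM. Alpl had 35.0 CPM in mock against 165 CPM in c15 and 31.9 to 32.1 CPM in c22 and c11. Of the marker lists of other cell types, skeletal muscle, erythroid, macrophage and endothelial markers summed to less in every knockout library than in mock. The summed level of 11 skeletal muscle markers was 117 CPM in mock and 1.82 to 25.2 CPM in the knockout libraries, where Myh2 was at 0 in all 3 and Myh1, Myh4 and Tnnt3 were at 0 in c11 and c15. The sum of 7 erythroid markers was 116 CPM against 1.63 to 41.1 CPM. The sum of 9 macrophage markers was 808 CPM against 245 to 434 CPM, with none at 0 and with Cd68 overlapping mock. The 6 endothelial markers were scarce, at 4.20 CPM in mock against 1.16 to 2.35 CPM. The 5 neutrophil markers, also scarce, did not follow this pattern, with a sum of 9.93 CPM in mock, while c11 had 4.34, c15 had 13.5 and c22 had 15.6 CPM. In bulk tissue, fewer cells of a type and less RNA per cell cannot be told apart.

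The promoters of the 4 kinase genes are shown first, because Pdk1 was, by library totals, the only kinase gene below mock in every knockout library and its relatives offer a comparison at the level of sequence. Each line gives the 250 bases before the transcript start in RefSeq (GRCm38.p6), read 5′ to 3′ on the gene's own strand. Capitals mark matches to ACGTG or GCGTG on either strand, the forms of the core of the hypoxia response element that HIF-1 binds.
Pdk1: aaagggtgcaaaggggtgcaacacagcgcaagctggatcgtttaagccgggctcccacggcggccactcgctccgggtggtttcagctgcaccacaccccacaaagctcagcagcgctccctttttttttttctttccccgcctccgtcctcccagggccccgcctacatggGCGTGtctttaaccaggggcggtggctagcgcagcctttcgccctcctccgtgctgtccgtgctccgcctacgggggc
Pdk2: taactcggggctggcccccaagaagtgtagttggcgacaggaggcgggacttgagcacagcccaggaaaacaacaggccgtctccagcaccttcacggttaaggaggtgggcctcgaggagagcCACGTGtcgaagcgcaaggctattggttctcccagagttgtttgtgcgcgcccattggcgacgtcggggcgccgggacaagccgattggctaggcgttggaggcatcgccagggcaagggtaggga
Pdk3: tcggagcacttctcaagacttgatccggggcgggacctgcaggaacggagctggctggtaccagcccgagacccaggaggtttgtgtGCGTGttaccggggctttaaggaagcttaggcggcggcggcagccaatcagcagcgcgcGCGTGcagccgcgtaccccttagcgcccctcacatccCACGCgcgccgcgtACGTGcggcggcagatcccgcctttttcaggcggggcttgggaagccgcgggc
Pdk4: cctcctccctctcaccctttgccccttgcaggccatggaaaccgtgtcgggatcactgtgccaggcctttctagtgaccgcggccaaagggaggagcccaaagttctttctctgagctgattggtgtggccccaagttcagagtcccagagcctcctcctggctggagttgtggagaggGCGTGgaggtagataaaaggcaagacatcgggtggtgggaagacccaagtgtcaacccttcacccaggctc

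The windows lie at chr2:71872974-71873223 on the plus strand for Pdk1, and on the minus strand at chr11:95041372-95041621 for Pdk2, chrX:93832151-93832400 for Pdk3 and chr6:5496279-5496528 for Pdk4. The Pdk1 window held 1 match, a GCGTG whose first base lies 78 bases before the start, and the Pdk4 window also held 1, a GCGTG 71 bases before the start. Pdk3 had the most, with 1 ACGTG and 3 GCGTG between 163 and 49 bases before the start. In Pdk2 the ACGTG is read on both strands of CACGTG, a palindrome that is also the E-box bound by MYC and other factors, and so counts as 1 site. A link between the number of matches and the levels in the knockout libraries was not tested. RefSeq windows were found for 9 of the 10 genes (all but Pdp1), and all 9 held at least 1 of the motifs, against 38.6% of all 32851 promoter windows of this length and 61.9% of the 8590 windows within the range of GC content of these 9, 58.8% to 73.6%. Pdk1, Pdk2 and Mpc1 had 2 windows each, and the one nearest the annotated gene start was used. For Mpc1 and Mpc2 the transcript start used lay 883 and 623 bases from the annotated gene start. Pdp2 held CACGTG as well, as did 6.02% of all windows. A match is a string of letters and not evidence of binding, and sites outside these windows were not searched.

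Pdk1 (chromosome 2, 71873224 to 71903858, plus strand, GRCm38) had the clearest pattern of the 10 genes. It was at 394 CPM in mock, while c11 had 118, c15 had 78.4 and c22 had 12.9 CPM. All 3 knockout libraries were below mock, by 3.33-fold in c11, 5.02-fold in c15 and 30.5-fold in c22. The knockout libraries also differed widely from each other: their mean was 69.9 ± 53.2 CPM (SD, n = 3), and c11 was 9.16 times as high as c22. The exact 95% Poisson intervals, which cover counting error only, were 112 to 124 CPM in c11, 73.7 to 83.3 CPM in c15 and 11 to 15 CPM in c22, so the differences among knockout libraries were larger than counting error. The lowest value was in c22, the library with the least Hif1a RNA, while c11 and c15 had low Pdk1 with Hif1a RNA near the mock level.

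The fitted log2 fold change of Pdk1 (knockout minus mock) was -2.50 (SE 0.92, 95% interval -4.77 to -0.23, unadjusted p = 0.0359). It did not pass edgeR's quasi-likelihood test with Benjamini-Hochberg adjustment over all genes (adjusted p = 1, lower in 3 of 3 knockout libraries). Of all tested genes, 2.56% were lower and 1.12% were higher at an unadjusted p under 0.05, and of the 10 genes only Pdk1 was among them. The summed muscle, erythroid and macrophage markers given above were lower in the same 3 libraries, so these sums and Pdk1 were all highest in mock. Among the knockout libraries, c22 had the most of the muscle, erythroid and macrophage markers and the least Pdk1. The part of these cell types in the Pdk1 values was not tested.

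**Figure D1:**
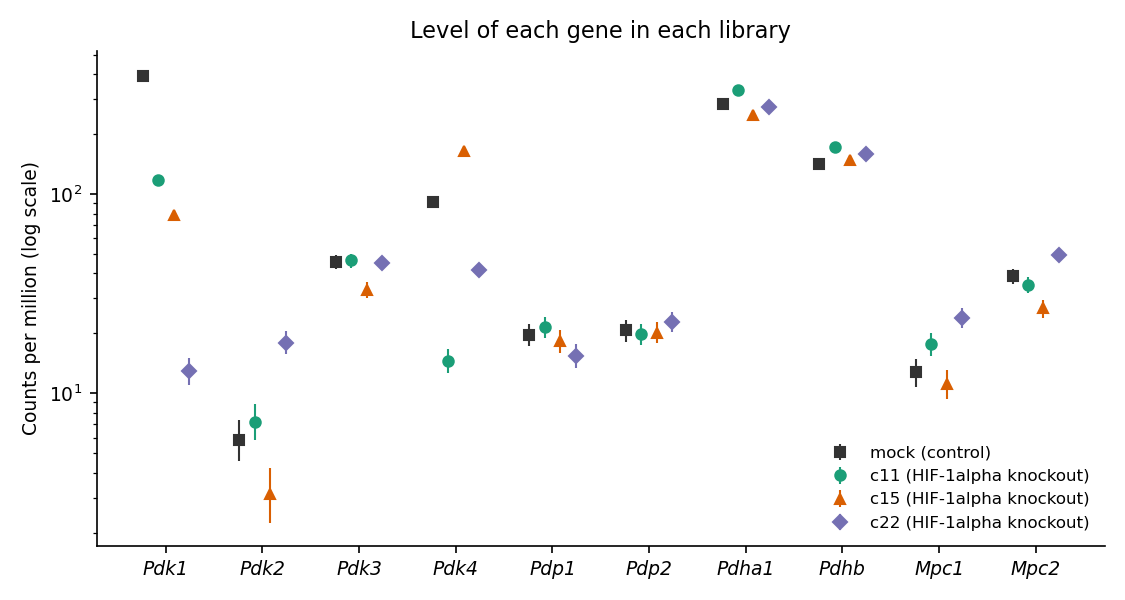
Level of each of the 10 genes in CPM (log axis), 1 symbol per library; bars are exact 95% Poisson intervals for counting error. Pdk1 is highest in mock (394 CPM) and lowest in c22 (12.9 CPM), while Pdha1 and Pdhb lie close together in all 4 libraries.

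Pdk4 (chromosome 6, 5483351 to 5496309, minus strand) went in different directions in different knockout libraries. It was at 91.3 CPM in mock, while c11 had 14.6, c15 had 165 and c22 had 41.6 CPM. The level in c15 was 1.81 times that of mock, and the levels in c11 and c22 were 6.27-fold and 2.20-fold below it, so mock lay inside the range of the knockout libraries. The ratio of c15 to c11 was 11.3, the widest of the 10 genes. The fitted log2 fold change was -0.30 (SE 1.16, 95% interval -3.18 to 2.58, edgeR adjusted p = 1), and it was 0.19 without c11, -1.69 without c15 and -0.02 without c22. Adipocytes and muscle are known for high Pdk4. The 7 adipocyte markers summed to 1.13 CPM or less in every library, with Lep and Retn at 0 in all 4. The summed muscle markers were lowest in c15 (1.82 CPM), where Pdk4 was highest. Over the remaining libraries, this sum and Pdk4 both rose from c11 (muscle sum 6.12 CPM) through c22 (25.2 CPM) to mock (117 CPM). The part of adipocytes, muscle or any other cell type in the Pdk4 values was not tested.

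Pdk2 (chromosome 11, 95026258 to 95041354, minus strand), a broadly expressed kinase gene, was the least abundant of the 4 in mock. It was at 5.81 CPM in mock, while c11 had 7.20, c15 had 3.11 and c22 had 18.0 CPM. The c22 library stood above the others, at 3.10 times mock, and the other knockout libraries lay on either side of mock. The fitted log2 fold change was 0.71 (SE 1.01, 95% interval -1.79 to 3.21, edgeR adjusted p = 1) and was -0.18 without c22.

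Pdk3 (chromosome X, 93764607 to 93832201, minus strand) was the steadiest kinase gene. It was at 45.9 CPM in mock, while c11 had 46.5, c15 had 33.1 and c22 had 45.1 CPM. Mock, c11 and c22 were within counting error of each other, and c15 was lower, at 0.722 of mock. Its fitted value was a log2 fold change of -0.14 (SE 0.36, edgeR adjusted p = 1), whose 95% interval of -1.02 to 0.74 leaves room for differences of up to about that size in either direction.

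**Figure D2:**
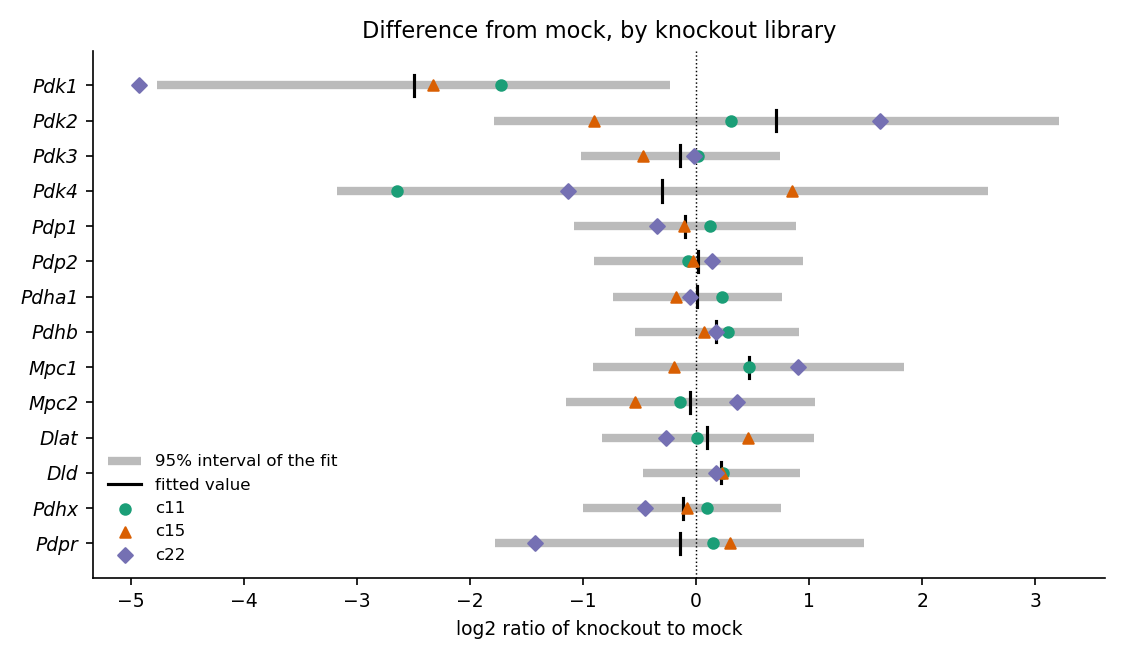
log2 ratio of each knockout library to mock (symbols) for the 10 genes and the other tested genes of the complex, with the fitted value (black tick) and its 95% interval (grey bar). Pdk1 lies to the left of 0 in all 3 libraries (-1.73, -2.33 and -4.93), Pdk4 and Pdk2 lie on both sides, and the genes of the catalytic subunits stay near 0.

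Levels of different genes were compared per kilobase of annotated exon, since longer transcripts give more counts. The exon length used was the union over all annotated transcripts (7779 bases for Pdk1 and 2561 to 3511 bases for the other kinase genes), so these comparisons depend on which transcripts were made. On this scale the order of the kinase genes was different in every library. It was Pdk1, Pdk4, Pdk3, Pdk2 in mock, where Pdk1 was at 50.6 CPM per kb and Pdk4 at 26 CPM per kb. In c11 the order was Pdk3, Pdk1, Pdk4, Pdk2, in c15 Pdk4, Pdk3, Pdk1, Pdk2 and in c22 Pdk3, Pdk4, Pdk2, Pdk1. In CPM with no length scaling, Pdk1 instead led in c11, with 63.4% of the summed kinase level against 24.9% for Pdk3, and the leading gene of the other 3 libraries was as above.

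Pdk1 made up 52.5% of the summed kinase level in mock, while its share in c11 was 38.2%, in c15 14.2% and in c22 4.51%. Its share was thus lower in each knockout library than in mock. The knockout mean was 19.0% per kb (9.35% without c11, 21.4% without c15 and 26.2% without c22). With no length scaling the knockout mean was 34.1%, against 73.3% in mock. Pdk3 made up 18.6% in mock, while its share in c11 was 45.6%, in c15 18.2% and in c22 47.8%, although its own level in CPM was no higher in c22 than in mock and 1.01 times mock in c11. Pdk4 made up 27.0% in mock, while its share in c11 was 10.4%, in c15 66.2% and in c22 32.2%, and was the leading kinase transcript of c15. Pdk2 made up 1.91% in mock, while its share in c11 was 5.73%, in c15 1.38% and in c22 15.5%.

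The summed level of the 4 kinase genes was 96.4 CPM per kb in mock, while c11 had 39.8, c15 had 71.0 and c22 had 36.8 CPM per kb, so every knockout library was below mock. Without Pdk1 the sums were 45.8 CPM per kb in mock and 24.6, 61.0 and 35.2 CPM per kb, and c15 was then above mock. In c15, Pdk4 by itself was at 47.0 CPM per kb, close to the level of Pdk1 in mock on this scale. With no length scaling the 2 levels were not close, at 165 CPM for Pdk4 in c15 and 394 CPM for Pdk1 in mock. Sums and shares are given as a description, with no test.

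**Figure D3:**
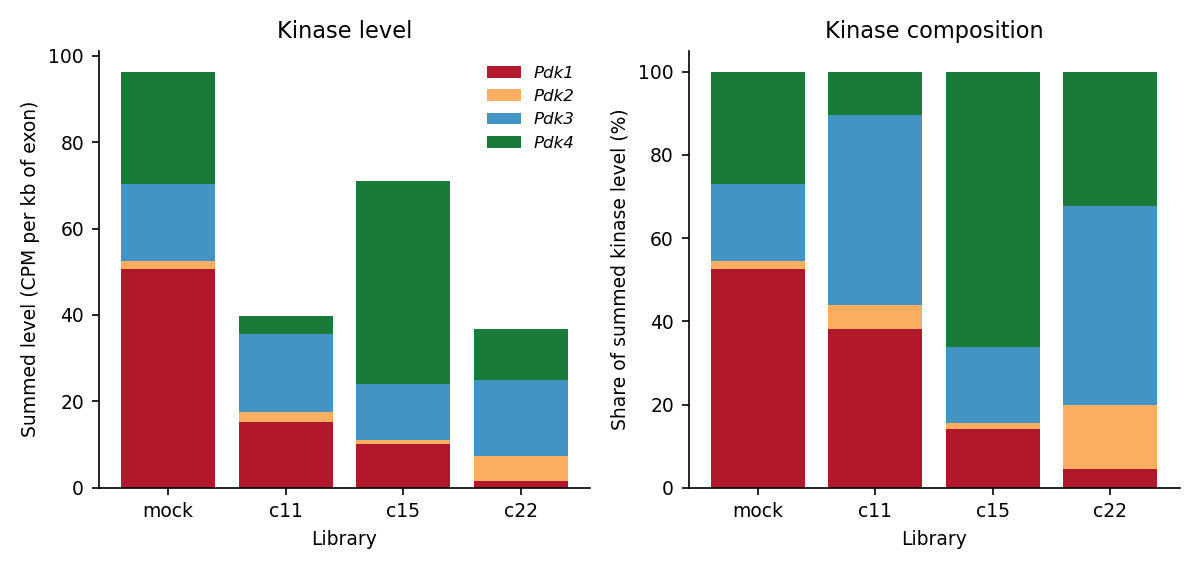
Left, level of the 4 kinase genes in CPM per kb of exon, stacked by gene, in each library; right, the same as percent of their sum. Pdk1 is the largest part in mock (52.5%), Pdk3 in c11 (45.6%) and c22 (47.8%), and Pdk4 in c15 (66.2%); with no length scaling Pdk1 would lead in c11 (63.4%).

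The phosphatase genes, which act against the kinases, showed no such differences. Pdp1 (chromosome 4, 11958184 to 11966452, minus strand), the calcium-stimulated phosphatase, was at 19.7 CPM in mock, while c11 had 21.5, c15 had 18.3 and c22 had 15.4 CPM. Pdp2 (chromosome 8, 104591451 to 104599026, plus strand), known for its sensitivity to insulin, was at 20.7 CPM in mock, while c11 had 19.8, c15 had 20.2 and c22 had 22.9 CPM. For each, mock lay within the range of the knockout libraries. Fitted log2 fold changes were -0.10 (SE 0.40, 95% interval -1.08 to 0.88) for Pdp1 and 0.02 (SE 0.37, 95% interval -0.90 to 0.95) for Pdp2, with an edgeR adjusted p = 1 for both. The summed phosphatase level was 8.0 CPM per kb in mock, while c11 had 8.23, c15 had 7.61 and c22 had 7.44 CPM per kb.

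The ratio of kinase to phosphatase transcripts, each summed per kb, was 12.0 in mock, while it was 4.83 (c11), 9.34 (c15) and 4.95 (c22) in the knockouts. All 3 knockout libraries were below mock, c15 the least so. On a log2 scale the knockout libraries averaged 2.60 ± 0.54 (SD, n = 3) against 3.59 in mock. The difference of -0.99 was -1.51 with no length scaling and ran from -1.30 (without c15) to -0.83 (without c11). Pdk1 alone was 52.5% of the kinase sum in mock. With Pdk1 left out, the kinase sum was 45.8 CPM per kb in mock and 61.0 CPM per kb in c15. The phosphatase sums were 8.0 and 7.61 CPM per kb, so c15 would then have a higher ratio than mock. Set against Pdha1, the transcript of the kinases' substrate, the summed kinase level was 1.27 times Pdha1 in mock and 0.446, 1.06 and 0.503 times in c11, c15 and c22. These are ratios of transcripts and say nothing of enzyme activity or of the phosphorylation of the complex.

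The 2 subunit genes of the first enzyme were abundant in every library. Pdha1 (chromosome X, 160122209 to 160138413, minus strand) was at 283 CPM in mock, while c11 had 333, c15 had 250 and c22 had 273 CPM, and mock lay inside the knockout range. Its fitted log2 fold change was 0.01 (SE 0.30, 95% interval -0.74 to 0.76, edgeR adjusted p = 1). Its exons share 603 bases with those of Map3k15 on the opposite strand, which had 1248 counts in mock against 3509 for Pdha1. The counting setting for strand is not given in the sources used here, so reads in that stretch may not have been kept apart. Pdhb (chromosome 14, 8165996 to 8173025, minus strand) was at 142 CPM in mock, while c11 had 172, c15 had 149 and c22 had 160 CPM. It was the only one of the 10 genes above mock in all 3 knockout libraries, by 1.05 to 1.22 times, with a fitted difference of 0.18 on the log2 scale (SE 0.29, edgeR adjusted p = 1). Of all tested genes, 21.0% were above mock in all 3 knockout libraries and 22.5% were below, so 1 of 10 on each side (Pdhb and Pdk1) is under the share of all genes. The other 8 overlapped mock, against 56.6% of all tested genes.

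The rest of the complex comprises the acetyltransferase Dlat, the dihydrolipoamide dehydrogenase Dld, the binding protein Pdhx, the testis form of the alpha subunit Pdha2 and the phosphatase regulatory subunit Pdpr. Of the 4 of these that were tested, 0 passed edgeR over all genes, 0 had an unadjusted p under 0.05 and 0 passed DESeq2, and their median log2 fold change was -0.01 (0.05 for all tested genes). Dld was at 168 CPM in mock, while c11 had 199, c15 had 198 and c22 had 191 CPM, above mock in all 3 and with little spread. Dlat was at 141 CPM in mock, while c11 had 142, c15 had 194 and c22 had 117 CPM. Pdhx was at 48.0 CPM in mock, with 51.5, 45.5 and 35.2 CPM in the same order. Pdpr was at 42.2 CPM in mock, while c11 had 46.8, c15 had 52.1 and c22 had 15.6 CPM. The c22 library was thus 2.70-fold below mock for the phosphatase regulator, and the other knockout libraries were above it. Pdha2 had 6 counts in mock against 1 (c11), 2 (c15) and 1 (c22) and was too low to test.

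The carrier subunits Mpc1 and Mpc2 work as a heterodimer. Mpc1 (chromosome 17, 8282904 to 8297661, plus strand) was at 12.8 CPM in mock, while c11 had 17.7, c15 had 11.1 and c22 had 23.9 CPM. Mpc2 (chromosome 1, 165460637 to 165481214, plus strand) was at 38.7 CPM in mock, while c11 had 35.0, c15 had 26.7 and c22 had 49.8 CPM. Both genes were highest in c22 and lowest in c15, and mock lay between. Fitted log2 fold changes were 0.47 (SE 0.56, 95% interval -0.91 to 1.84) for Mpc1 and -0.05 (SE 0.45, 95% interval -1.15 to 1.05) for Mpc2, with an edgeR adjusted p = 1 for both. The Mpc1 value was 0.17 without c22 and 0.71 without c15. The level of Mpc1 is uncertain. Its processed pseudogene Mpc1-ps had 118 counts in mock, and c11 had 167, c15 had 116 and c22 had 212, against 158, 228, 147 and 312 for Mpc1 in the same order. The transcript 4930506C21Rik, which shares 480 exon bases with Mpc1 on the opposite strand, had 114, 162, 115 and 215 counts. The 3 rows went up and down together, and reads shared between them may have been split.

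Across the 10 genes, edgeR called 0 lower and 0 higher over all genes. In the same fit 0.00637% of tested genes (1 gene) were called lower and 0.0% higher. DESeq2 and limma-voom also called 0 of the 10, and limma-voom called 0.0% of all tested genes in either direction. Pdk1 was the 1 gene of the 10 at an unadjusted p under 0.05 in each tool (lower), as were 1.65% of all tested genes in DESeq2 and 2.71% in limma-voom, with another 2.12% and 0.872% higher. DESeq2 gave Pdk1 an adjusted p of 0.38, its smallest under any alternative, and called 0.42% of tested genes lower and 0.306% higher. The median log2 fold change of the 10 genes was -0.02, against 0.05 for all tested genes. With DESeq2's size factors in place of library totals, Pdk3 as well as Pdk1 was below mock in all 3 knockout libraries.

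The 10 genes divided by how far the knockout libraries stood apart from each other. The range of log2(CPM + 0.5) among the 3 knockout libraries was 3.46 for Pdk4, 3.15 for Pdk1 and 2.36 for Pdk2. These ranges were wider than those of 98.1%, 97.7% and 96.2% of the 11315 tested genes with a mean of at least 5 CPM, whose median range was 0.62. At the other end were Pdp2 and Pdhb, each with a range of 0.21, wider than 9.1% and 9.7% of those genes. Pdha1 (0.41), Pdp1 (0.46) and Pdk3 (0.48) were also under the median, and Mpc2 (0.89) and Mpc1 (1.06) were above it. Among the 10 genes, the catalytic and phosphatase genes were thus at similar levels in the knockout libraries, while 3 of 4 kinase genes were not. In the rest of the complex, the highest knockout library was 3.34 times the lowest for Pdpr. For Dlat, Pdhx and Dld it was 1.66, 1.46 and 1.04 times. The ranges are a description of 3 libraries, with no test.

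**Figure D4:**
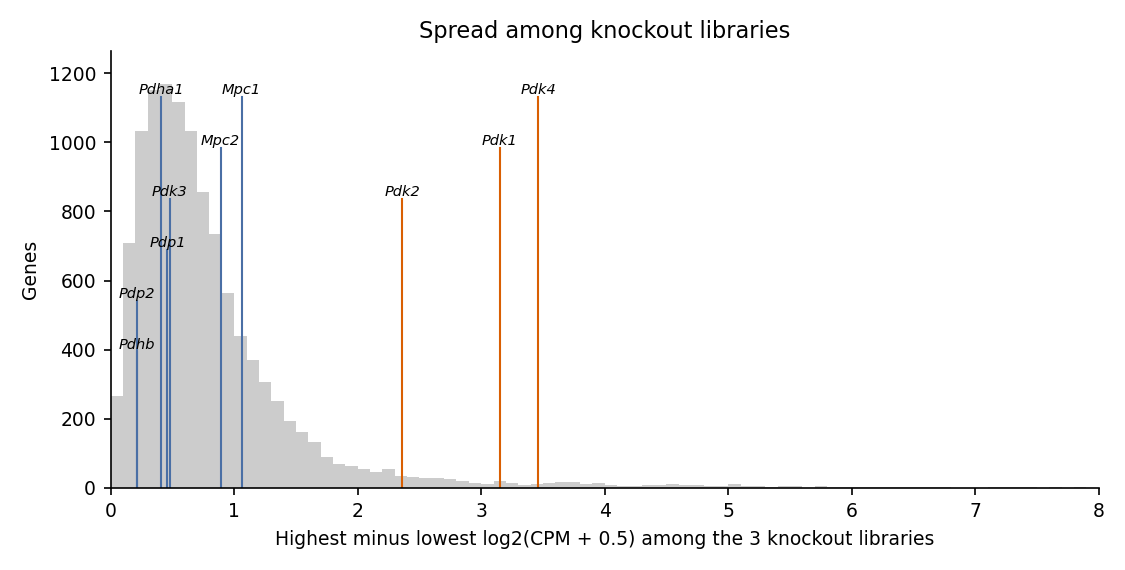
Histogram of the range among the 3 knockout libraries, in log2(CPM + 0.5), for 11315 tested genes with a mean of at least 5 CPM; vertical lines mark the 10 genes, and their heights only keep the names apart. Pdk2, Pdk1 and Pdk4 (2.36, 3.15 and 3.46) lie in the right tail, and Pdp2 and Pdhb (0.21) on the left.

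Other genes were compared with each kinase gene by the shape of their levels over the 4 libraries. The measure was the root mean square difference of log2(CPM + 0.5), each gene centred on its own mean, among 10215 genes. Nearest to Pdk1 were Smpd3 (0.345), Erg (0.446), Notch3 (0.464), Tnfrsf19 (0.498) and Mmp16 (0.541). Smpd3, which encodes a neutral sphingomyelinase, was at 61.1 CPM in mock, while c11 had 11.6, c15 had 14.8 and c22 had 1.76 CPM. In c22, Erg had 0.54, Notch3 1.53, Tnfrsf19 0.92 and Mmp16 0.0 CPM, against 12.9 CPM for Pdk1. At such low levels the added 0.5 weighs on the measure. None of the 5 belongs to the pyruvate pathway lists. Nearest to Pdk4 were Etv4 (0.121), Cped1 (0.21) and Bmp2 (0.218), all highest in c15 and lowest in c11. Bmp2, a bone growth factor gene, was at 14.4 CPM in mock, while c11 had 2.79, c15 had 24.0 and c22 had 7.57 CPM. Nearest to Pdk2 were Lsp1 (0.068), Myo7a (0.088) and Mlf1 (0.106), which peaked in c22. Pdk3 was nearest to Rps14 (0.008), Mgat1 (0.012) and Timm21 (0.016). With 4 libraries, many genes have a similar shape, most of all among the flat ones.

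The wider pathway was examined in 4 further lists. Among 13 tested genes of other fates and sources of pyruvate, 0 passed edgeR over all genes, and at an unadjusted p under 0.05 there were 2 lower and 1 higher. By size, the ends of the list were Ldha and Pcx. Ldha, the lactate dehydrogenase gene, was at 3867 CPM in mock, while c11 had 675, c15 had 1602 and c22 had 848 CPM (log2 fold change -1.89, SE 0.47, edgeR adjusted p = 0.621). Pcx, whose product carboxylates pyruvate to oxaloacetate, was at 10.3 CPM in mock, with 36.5, 11.1 and 64.1 CPM in the same order (log2 fold change 1.86, SE 1.01, edgeR adjusted p = 1). Pkm and Gpt2 were the others under the unadjusted threshold and were singled out after their values were seen. Pkm, the pyruvate kinase gene, was at 3937 CPM in mock and 1211 to 2068 CPM in the knockout libraries, and Gpt2, a mitochondrial alanine transaminase gene, was at 88.5 CPM against 146 to 274 CPM. This list went both ways, with 4 tested genes below mock in every knockout library, 4 above it in every one (22.5% and 21.0% of all tested genes), and a median of 0.34. The share of Pdk1 and the level of Ldha were both below mock in each knockout library, but not in the same order: Ldha was lowest in c11 and Pdk1 in c22.

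The tricarboxylic acid cycle list, which holds the enzymes that burn the acetyl-CoA made by the complex, had 15 tested genes with a median of -0.05. It ran from Fh1 at -0.28 (SE 0.35) to Mdh2 at 0.50 (SE 0.29), with 0 past edgeR over all genes and 0 at an unadjusted p under 0.05. The sister dehydrogenases of 2-oxoglutarate and branched-chain acids share Dld and the lipoyl cofactor with the pyruvate complex. They and the lipoylation enzymes had 13 tested genes with a median of 0.02 and 0 past either threshold. Their lowest was Lipt2 at -0.83 (SE 0.52). Their highest was Dhtkd1 at 2.40 (SE 2.68), which rested on c15 (11.3 CPM, against 0.73 CPM in mock, 0.23 CPM in c11 and a count of 0 in c22). Bckdk, the kinase of the branched-chain complex and a relative of the Pdk genes, was at 89.7 CPM in mock, while c11 had 71.8, c15 had 86.7 and c22 had 95.3 CPM, with mock inside the knockout range. It was named after its values were seen.

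The last list held transcription factors known to act on Pdk genes, among them the PPAR and FOXO factors, with fatty acid oxidation genes that respond to the same factors. Of 16 tested genes, 0 passed edgeR over all genes and 0 had an unadjusted p under 0.05, and the median was 0.01. Leaving out genes that averaged under 1 CPM, the list ran from Ucp2 at -0.87 (SE 0.48) to Ppard at 0.47 (SE 0.57). Ppard was at 45.2 CPM in mock, while c11 had 53.4, c15 had 38.7 and c22 had 94.9 CPM, and was lowest in the library with the most Pdk4. DESeq2 called 0 genes of any of the 4 lists.

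**Figure D5:**
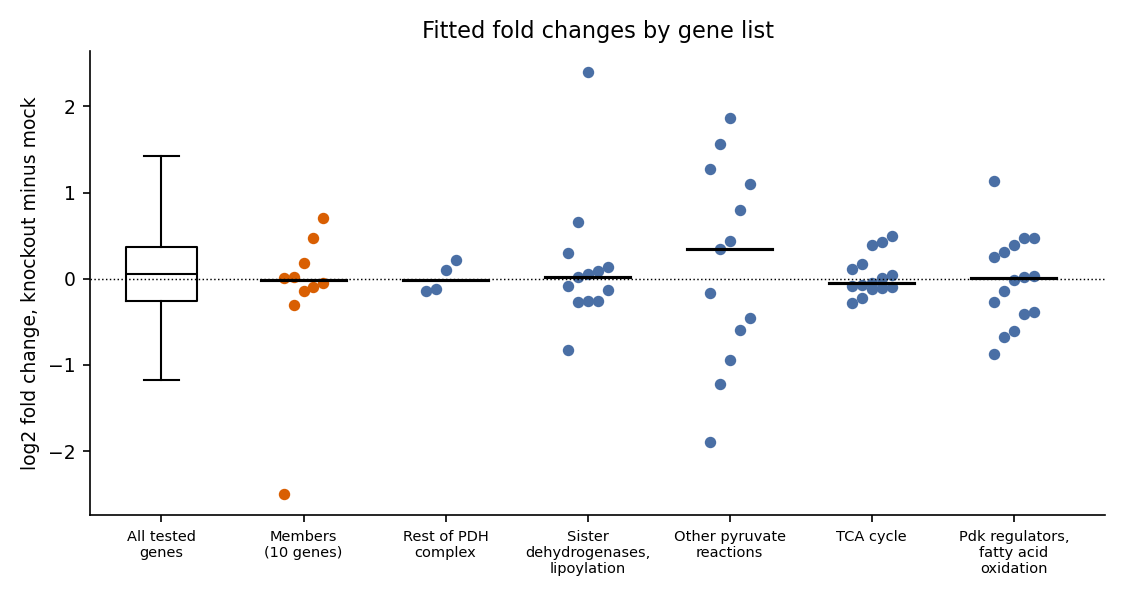
Fitted log2 fold change (knockout minus mock) of each tested gene, by list, with list medians as black lines; the box shows the quartiles and median of all tested genes and its whiskers the 5th and 95th percentiles. Pdk1 (-2.50) stands apart from the other 9 members, which lie between -0.30 and 0.71, and the list of other pyruvate reactions is the most spread out.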

How the data were processed

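Libraries of poly(A) RNA were directional, per the labels' protocols. The authors deposited raw counts of reads per Ensembl gene. The build GRCm38 and the tools featureCounts 1.6.3, HISAT2 2.1.0 and Trimmomatic 0.38 are named per the submitters' processing notes; strand and multi-mapping settings are not given in the sources used here.

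Library totals were 12383719 to 13193264, and a count of 0 allowed up to 0.227 to 0.242 CPM. Library pairs differed beyond sampling noise (mean chi-square per gene 48.3 to 90.3). The smallest value was that of mock and c15, and the largest was that of c15 and c22, both knockout libraries. Genes passing filterByExpr (15706, with 99.9% of counts) entered the robust, 2-sided quasi-likelihood test of edgeR 4.0.16 (R 4.3.3) after TMM scaling, with a Benjamini-Hochberg threshold of 0.05, SE from the F statistic. The spread of the lone mock library was taken to equal that of the knockout libraries, leaving 2 residual degrees of freedom. DESeq2 1.42.0, limma-voom (limma 3.58.1), other scalings and filters, and leaving out each knockout library were alternatives. Exon lengths came from GENCODE M21, in which 55227 of 55487 IDs were found, and promoter sequences from RefSeq.

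Members and lists were chosen with earlier results of these data known. Named were Hif1a, all members, the rest of the complex, the highest and lowest gene (mean of at least 1 CPM) of each other list, and the 5 genes most like Pdk1 and 3 most like each other kinase gene, leaving out predicted genes, Rik clones and pseudogenes.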

Additional observations from a re-analysis of the deposited data

How the results depend on the processing

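No result for the 10 genes crossed the threshold under any of the 10 alternatives to the test, where Pdk1 stayed between -3.10 and -2.01 (log2, adjusted p 0.38 to 1). The count of all genes called lower was 1, and it was 4 with no low-count filter, 66 with DESeq2, 0 with limma-voom, 0 with edgeR's older quasi-likelihood method (an alternative chosen after seeing the data) and 0 to 0 when 1 knockout library was left out; DESeq2 called 48 genes higher. Of 100 recomputed fold changes of members, 9 changed sign, all of values near 0 or carried by 1 library. Over the fits that left out 1 knockout library, Pdk2 ran from -0.18 (without c22) to 1.13, Pdk4 from -1.69 (without c15) to 0.19 (without c11), Mpc1 from 0.17 (without c22) to 0.71 (without c15), Pdk3 from -0.21 to -0.00 (without c15), Pdhb from 0.15 to 0.23, Pdp1 from -0.21 to 0.00 (without c22), Pdp2 from -0.05 (without c22) to 0.08, Pdha1 from -0.10 (without c11) to 0.10, and Mpc2 from -0.33 to 0.14 (without c15; 0.01 without c11). With upper quartile scaling Pdp2 was at -0.00 and Pdha1 at -0.01. Outside the members, Dlat ran from -0.12 (without c15) to 0.25, Pdhx from -0.24 to 0.01 (without c22) and Pdpr from -0.45 to 0.22 (without c22), and Dhtkd1 was at -0.62 with limma-voom. With no length scaling the log2 kinase to phosphatase balance (knockout mean minus mock) was -1.51 in place of -0.99, and the mean knockout share of Pdk1 was 34.1% in place of 19.0%. DESeq2's size factors put 2 members below mock in all knockout libraries in place of 1.
No paired analysis was possible because the labels give the mock library no replicate and the columns carry no replicate numbers.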
